A study of Mus musculus with 11 samples.

Results

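Dividing neural progenitors were studied in single-cell RNA sequencing libraries of the mouse brain, made with the 10x Genomics 3′ method, in which each molecule of RNA is counted once by its unique molecular identifier (UMI). A cell was a member when it held at least 2 UMIs of Sox11 and at least 1 UMI of 3 or more of 6 dividing genes (Top2a, Mki67, Cenpf, Birc5, Ube2c and Cdk1). It also had to hold UMIs of fewer than 2 of 8 exclusion markers of other cell types (P2ry12, Tmem119, C1qa, Cldn5, Mog, Kcnj13, Cd3e and Pdgfra). Cells had first to pass the filters of more than 500 genes, more than 1000 UMIs and less than 25% mitochondrial UMIs. The rule found 63 members among 132,437 retained cells from 155,804 barcodes, a share of 0.0476%. The members were thus chosen by measured UMIs, so the levels of Sox11, the dividing genes and the exclusion markers describe the choice of cells, and no gene was tested between members and other cells.

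The 11 libraries, 1 per mouse, came from 4 groups of mice. The wild-type mice were C57BL/6 from a university breeder, and the knockout mice were made by a company on a C57BL/6 background for which the methods name the N substrain in most places and the J substrain in another, so that source and substrain cannot be told apart from genotype. The sham + WT group (3 mice; replicates 1, 2 and 3) had a sham operation and an intact Lrg1 gene. The sham + Lrg1-/- group (3 mice; replicates 1, 2 and 5) had the same operation in mice with a conventional knockout, in which every cell of the body lacks Lrg1. The MCAO/R + WT group (2 mice; replicates 1 and 2) and the MCAO/R + Lrg1-/- group (3 mice; replicates 1, 2 and 5) had transient occlusion of the middle cerebral artery followed by reperfusion, a model of ischemic stroke. The study's methods give the wild-type mice as males of 8–10 weeks, describe a red blood cell lysis step, and give an age of 3 months for the Lrg1-/- mice. By these statements age also cannot be told apart from genotype. Several reperfusion times are listed for the study, and the one used for these libraries is not clearly stated. The design asks how ischemia-reperfusion and the loss of Lrg1, a secreted glycoprotein, act on brain cells.

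In the adult mouse brain, new neurons come mainly from the wall of the lateral ventricle and from the dentate gyrus of the hippocampus. Slowly dividing stem cells give rise to transit-amplifying progenitors, which divide rapidly and express Egfr, and these give rise to neuroblasts, which express Dcx, Sox11 and Tubb3. Progenitors of the ventricular wall mostly follow a ventral forebrain program with the homeobox genes Dlx1, Dlx2, Dlx5 and Dlx6 toward inhibitory interneurons of the olfactory bulb, whereas those of the dentate gyrus pass through a stage with Eomes and Neurog2. Genes of the G2 and M phases, such as Top2a, which untangles DNA, and Ube2c, which loads ubiquitin onto mitotic proteins, are switched on together before division, and CCAAT boxes and cell cycle homology region (CHR) elements of their promoters take part in that timing.

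The promoters of 3 dividing genes of the rule are shown because they chose the members and both elements lie close to their start. Each line holds the 100 bases upstream of the transcription start, 5′ to 3′ on the gene's own strand, from RefSeq on GRCm38.p6. Capitals mark CCAAT or its reverse complement ATTGG, and TTTGAA or its reverse complement TTCAAA.
Top2a, chr11:99024190-99024289, minus strand: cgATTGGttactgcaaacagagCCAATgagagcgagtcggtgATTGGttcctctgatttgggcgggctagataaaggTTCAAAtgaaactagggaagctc
Ube2c, chr2:164769829-164769928, plus strand: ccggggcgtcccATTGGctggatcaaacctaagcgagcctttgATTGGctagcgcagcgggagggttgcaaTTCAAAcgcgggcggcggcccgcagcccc
Cdk1, chr10:69352913-69353012, minus strand: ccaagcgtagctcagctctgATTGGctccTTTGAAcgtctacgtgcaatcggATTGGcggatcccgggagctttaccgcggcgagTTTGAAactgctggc
Among 25 promoters of the G2/M list, 19 held the first motif within 250 bases upstream, 7 held the second and 6 held both. Among all 32,851 promoters of the table the shares were 33.8%, 16% and 5.55%. The Birc5 window held neither motif. A match describes the letters of the window and not a bound site.

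The members lay unevenly across mice. The sham + WT libraries held 10, 8 and 4 members, the sham + Lrg1-/- libraries 5, 0 and 0, the MCAO/R + WT libraries 3 and 23, and the MCAO/R + Lrg1-/- libraries 0, 3 and 7. A single library, MCAO/R + WT replicate 2, thus supplied 23 of the 63 cells, and 3 of the 6 knockout libraries supplied none. Members held a median of 12,799 UMIs (1011 to 43,122), against 6170 over all retained cells. In all, the members' results rest on 854,140 UMIs.

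The rule's last criterion removed most candidates. Of 445 cells with Sox11 and 3 or more dividing genes, 382 (85.8%) were left out by the exclusion markers. The complement gene C1qa, a microglial marker, was counted in 82.5 to 98.9% of all retained cells of each library. C1qa had a UMI in 45 of the 63 members and in 96.6% of the cells left out, in which the endothelial gene Cldn5 had a UMI in 74.6%, the myelin gene Mog in 45.5% and the microglial receptor P2ry12 in 44.2%. The cells left out had a higher median depth, 25,170.5 UMIs. Just inside the rule lay 53 cells with 1 exclusion marker, 13 cells with exactly 3 dividing genes and 4 with exactly 2 Sox11 UMIs. Just outside lay 122 cells with 2 exclusion markers, 27 with 2 dividing genes and 6 with 1 Sox11 UMI. A wider set, in which an exclusion marker counted only from 3 UMIs, was added after the data were seen; it held 346 cells and is given beside the members below.

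**Figure D1:**
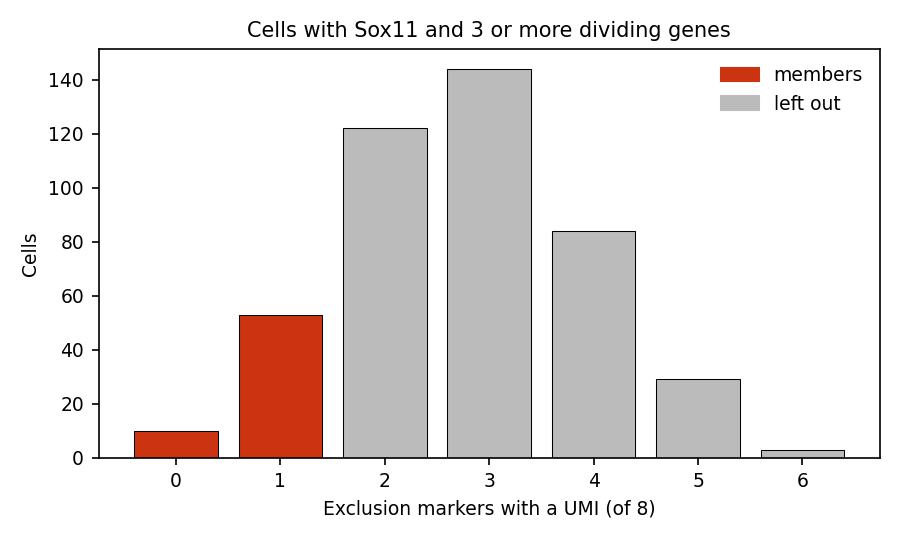
Number of cells (y axis) by the number of the 8 exclusion markers with a UMI (x axis), for the 445 cells with Sox11 and 3 or more dividing genes. The 63 members have 0 or 1 marker (10 and 53 cells), and most candidates have 2 to 4 (122, 144 and 84 cells).

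Most members held markers of neural progenitors that the rule did not use. Shares of members with a UMI are given beside the share in microglia without Sox11 or dividing genes (60,778 cells, median 7404 UMIs), which should lack these genes, and the members' median depth of 12,799 UMIs was higher. The stem and progenitor factor Sox2 was counted in 51 of 63 members (81.0%, against 9.38% of microglia) and the growth factor receptor gene Egfr in 36 (57.1%, against 3.01%). The interneuron factor Dlx2 was counted in 43 (68.3%, against 0.999%) and the neuroblast gene Dcx, which binds microtubules in migrating neurons, in 44 (69.8%, against 1.71%). The oligodendrocyte lineage genes Sox10 and Gpr17 and the cerebellar gene Atoh1 had no UMI in any member. At 63 cells this allows up to 4.76% of members with a UMI and sets no limit on cells that express the gene. Other genes of these lineages were counted in members, 5 of the 7 of the oligodendrocyte precursor list and 2 of the 5 of the cerebellar granule list.

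RNA of most other cell types was lower in the members than in all cells, and that of astrocytes varied by library. The exclusion markers belong to microglia, endothelial cells, oligodendrocytes and other types, so low levels of their lists follow partly from the choice of cells. No exclusion marker was an astrocyte gene. Summed over 10 microglial genes, the level was 6.46 UMIs per 10,000 in members, 86.2 in all retained cells and 122 in 253 dividing microglia, and it lay below the level of all cells in 8 of 8 libraries. The endothelial list stood at 1.49 against 36.2, the oligodendrocyte list at 5.91 against 64.3 and the choroid plexus list at 5.29 against 203. The ependymal (0.152), T cell (0.0234) and cerebellar granule lists (0.105) were close to 0. The oligodendrocyte precursor list stood at 0.656 against 2.46, with members below all cells in 7 of 8 libraries. Sox11-positive cells with no dividing gene held a similar level of it, 0.605. In sham + WT replicate 3 its level in members was 4.98, above the range of all cells by library (1.15 to 3.85). The astrocyte list was at 5.28 in members against 3.39 in all cells, with 0 to 7.96 by library and members below all cells in 4 of 8 libraries. It was highest in MCAO/R + WT replicate 2, without which the pooled level was 3.14. In that library 1 member with 2 UMIs of Sox11 held 52 of the astrocyte gene Aldoc and 42 of Slc1a3. Even so, the microglial gene C1qb had a UMI in 47 members and the choroid plexus gene Ttr in 51. Doublet scores marked 1 member as a doublet.

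The dividing genes differed in level across libraries. Top2a ran from 1.75 (MCAO/R + Lrg1-/- replicate 2) to 12.7 UMIs per 10,000 (sham + Lrg1-/- replicate 1), and Mki67, which encodes the Ki-67 proliferation antigen, from 0.786 to 9.40. Sox11, a transcription factor of immature neurons, was steadier. In the sham + WT libraries it stood at 19.3, 14.0 and 13.6, in sham + Lrg1-/- replicate 1 at 6.50, in MCAO/R + WT at 14.9 and 15.7, and in MCAO/R + Lrg1-/- at 17.1 and 19.6. All 6 dividing genes were counted in 22 members, 5 in 17, 4 in 11 and 3 in 13. The cells with all 6 had the highest median depth (17,826.5 UMIs) and those with 4 the lowest (9055).

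Other cell cycle genes were high in the pooled members, though not in every member. The G2/M list of 30 genes, none of them in the rule, summed to 72.8 UMIs per 10,000 in members, against 2.75 in 504 Sox11-positive cells with no dividing gene, the non-dividing comparison used below. By library it was 72.2, 76.9 and 31.4 in sham + WT, 86.2 in sham + Lrg1-/- replicate 1, 30.3 and 80.5 in MCAO/R + WT and 71.8 and 57.5 in MCAO/R + Lrg1-/-. The groups overlapped. The S phase list was at 22.8 against 3.79, and both lists were above the non-dividing cells in 8 of 8 libraries. Members were chosen for dividing genes and the comparison cells for having none. The direction of these differences therefore follows from the choice of cells. The rule's own genes belong mostly to G2 and M, and Hmgb2 alone gave 27.5 of the 72.8, so the sums do not place cells in a phase. Pooled dividing microglia stood at 14.5 for S phase and near 20 for G2/M. By library they ran from 2.53 to 35.3 and from 16.4 to 59.9, and members lay above them in 7 and 6 of 8 libraries.

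Single genes of these lists followed the sums. Hmgb2, a chromatin protein that bends DNA, was the most abundant, at 27.5 UMIs per 10,000 against 1.83 in the non-dividing cells, and it was counted in 62 members. Cenpa, the histone of the centromere, was at 3.95 against 0.0547, and the spindle factor Tpx2 at 3.72 against 0.0339. Of the S phase list, Dut, which clears dUTP, was at 3.01 against 0.370, the replication clamp gene Pcna at 2.40 against 0.576 and Rrm2, a subunit of ribonucleotide reductase, at 2.31 against 0.0808. Upstream of these, the G1 regulators Ccnd2 (15.2 against 9.46) and Cdk4 (5.27 against 2.06), which together drive cells out of G1, and the inhibitor Cdkn2c (1.14 against 0.242) were higher in members, Cdk4 and Cdkn2c in 8 of 8 libraries and Ccnd2 in 7.

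**Figure D2:**
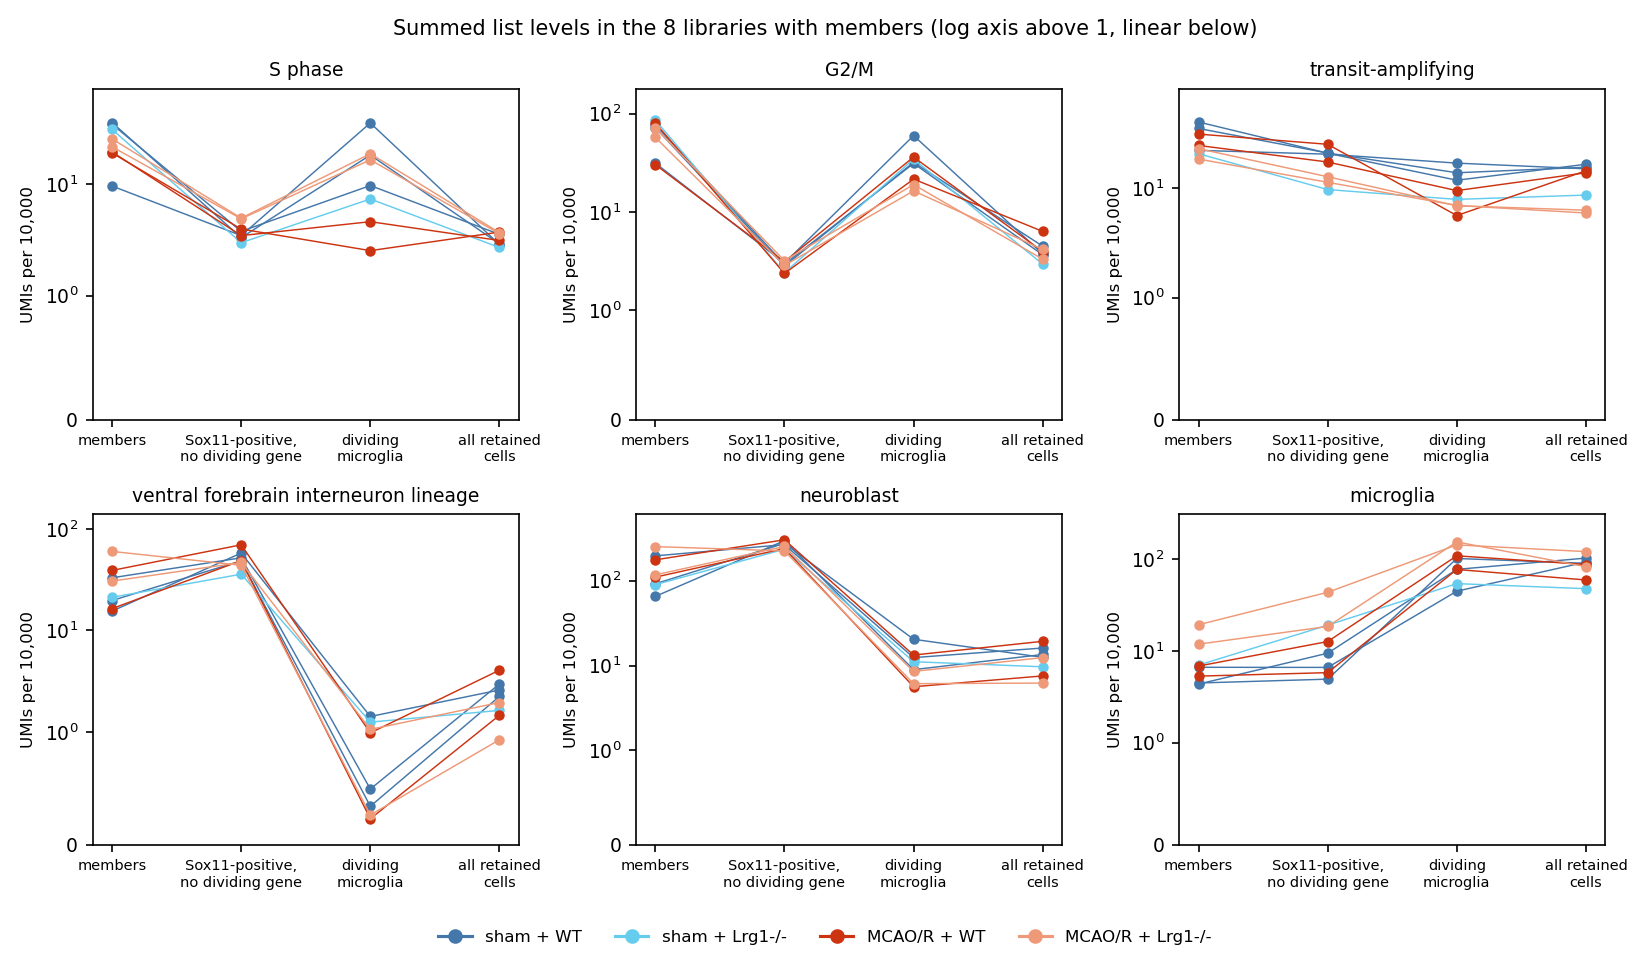
Summed level of 6 gene lists (y axis, UMIs per 10,000, logarithmic above 1 and linear below) in 4 classes of cells (x axis) in the 8 libraries with members, each line 1 library coloured by group. In members the G2/M list runs from 30.3 to 86.2, the S phase list from 9.6 to 35.6 and the neuroblast list from 65.3 to 252. S phase in dividing microglia (from 2.53) and the microglial list in non-dividing cells (up to 43.3) reach into the range of other classes.

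Members held more of the transit-amplifying genes and less of the neuroblast genes than the non-dividing Sox11-positive cells did, while the stem cell and radial glia list, at 16.8 against 15.1, was above in 4 of 8 libraries. The transit-amplifying list was at 28.3 UMIs per 10,000 against 19.0, above in 8 of 8 libraries, with a range of 18.4 to 40.1. Egfr was at 2.19 against 0.818 and Insm1, a zinc finger factor of dividing neuronal precursors, at 2.52 against 0.576, the last above in 8 of 8 libraries. In the Notch pathway, whose signalling between neighbours holds progenitors undifferentiated, the receptor Notch1 was at 1.30 against 0.524 (8 of 8 libraries), and the ligand genes Dll1 at 0.328 against 0.0990 and Dll3 at 0.433 against 0.0521. The whole Notch list of 16 genes differed less, at 5.35 against 4.01, above in 6 of 8 libraries. It lay below all retained cells (7.66) in 8 of 8 libraries. The radial glial lipid carrier Fabp7 was at 1.55 against 0.268, while Sox9 (2.27 against 2.36) and the glutamate transporter Slc1a3 (3.89 against 3.58) stood close to the non-dividing cells.

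The neuroblast list was at 154 against 268 and was above the non-dividing cells in 1 of 8 libraries. The adhesion gene Nrxn3, its largest part, was at 60.4 against 147, the tubulin Tubb2b at 10.9 against 23.7, the guidance receptor gene Robo2 at 3.90 against 12.2 and Dcx at 3.20 against 5.07. Stmn1, which destabilises microtubules and is also used in mitosis, went the other way, at 36.4 against 22.2, and was counted in all 63 members. The ventral forebrain interneuron list was at 32.3 against 53.8. Within it the early genes Dlx2 (2.97 against 1.69) and Dlx1 (2.75 against 2.19) were higher in members, and the GABA synthesis genes Gad1 (1.62 against 4.75) and Gad2 (1.77 against 3.95) and the factor Meis2 (8.86 against 21.1, below in 8 of 8 libraries) were lower. Over 9658 genes compared in the 8 libraries with members, 371 (3.84%) were higher in members in every library and 496 (5.14%) were lower, and the higher ones include the 6 dividing genes of the rule, which are at 0 in the comparison cells by choice.

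The members were not uniform. A split made after the values were seen, by the summed UMIs of Dlx1, Dlx2, Dlx5 and Dlx6, gave 17 cells with none (6 libraries, median 12,799 UMIs), 12 cells with 1 to 4 (7 libraries, median 4818 UMIs) and 34 cells with 5 or more (8 libraries, median 13,718 UMIs). The cells with none therefore were no shallower than the members as a whole, whereas those with 1 to 4 were. In the same order, Slc1a3 stood at 9.27, 4.17 and 2.06 UMIs per 10,000, Egfr at 4.50, 3.54 and 1.16, and the Notch ligand gene Dll1 at 0.814, 0.545 and 0.125. The opposite order held for the interneuron factor Sp9 (0.163, 1.45 and 5.54), Dcx (1.08, 2.27 and 4.07), the tubulin Tubb3 (2.01, 3.63 and 7.22), the growth cone gene Stmn2 (0.380, 2.99 and 5.81) and Gad1 (0.0542, 0.998 and 2.25). Sox2 (3.04, 1.91 and 2.88) showed no such order. These are descriptions of cells that share libraries, with no test.

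Markers of successive stages met in the same cells. Egfr and Dlx2 were counted together in 26 members, Dlx2 and Dcx in 35 and Sox2 and Dcx in 37. Singly, Egfr was counted in 36 of the 63 members, Dlx2 in 43, Dcx in 44 and Sox2 in 51. Genes this widely counted meet in many cells without any link. Whether they met more often than that was not tested. A few cells lay outside the main pattern. In sham + WT replicate 1, 1 member held 7 UMIs of Eomes and 6 of Neurog2, genes of dividing excitatory precursors, with 15 of Slc1a3 and none of the 4 Dlx genes. In MCAO/R + WT replicate 2, 1 member held 5 UMIs of Eomes, 22 of Slc1a3 and 13 of Sox2, again with none of the Dlx genes, and another held 35 UMIs of the Notch target Hes5, 11 of Egfr and 5 of the glial factor Olig2. In sham + WT replicate 3, 1 member held 8 UMIs of Olig2, 20 of Slc1a3 and 24 of Fabp7. Eomes was counted in 4 members in all and Olig2 in 8.

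**Figure D3:**
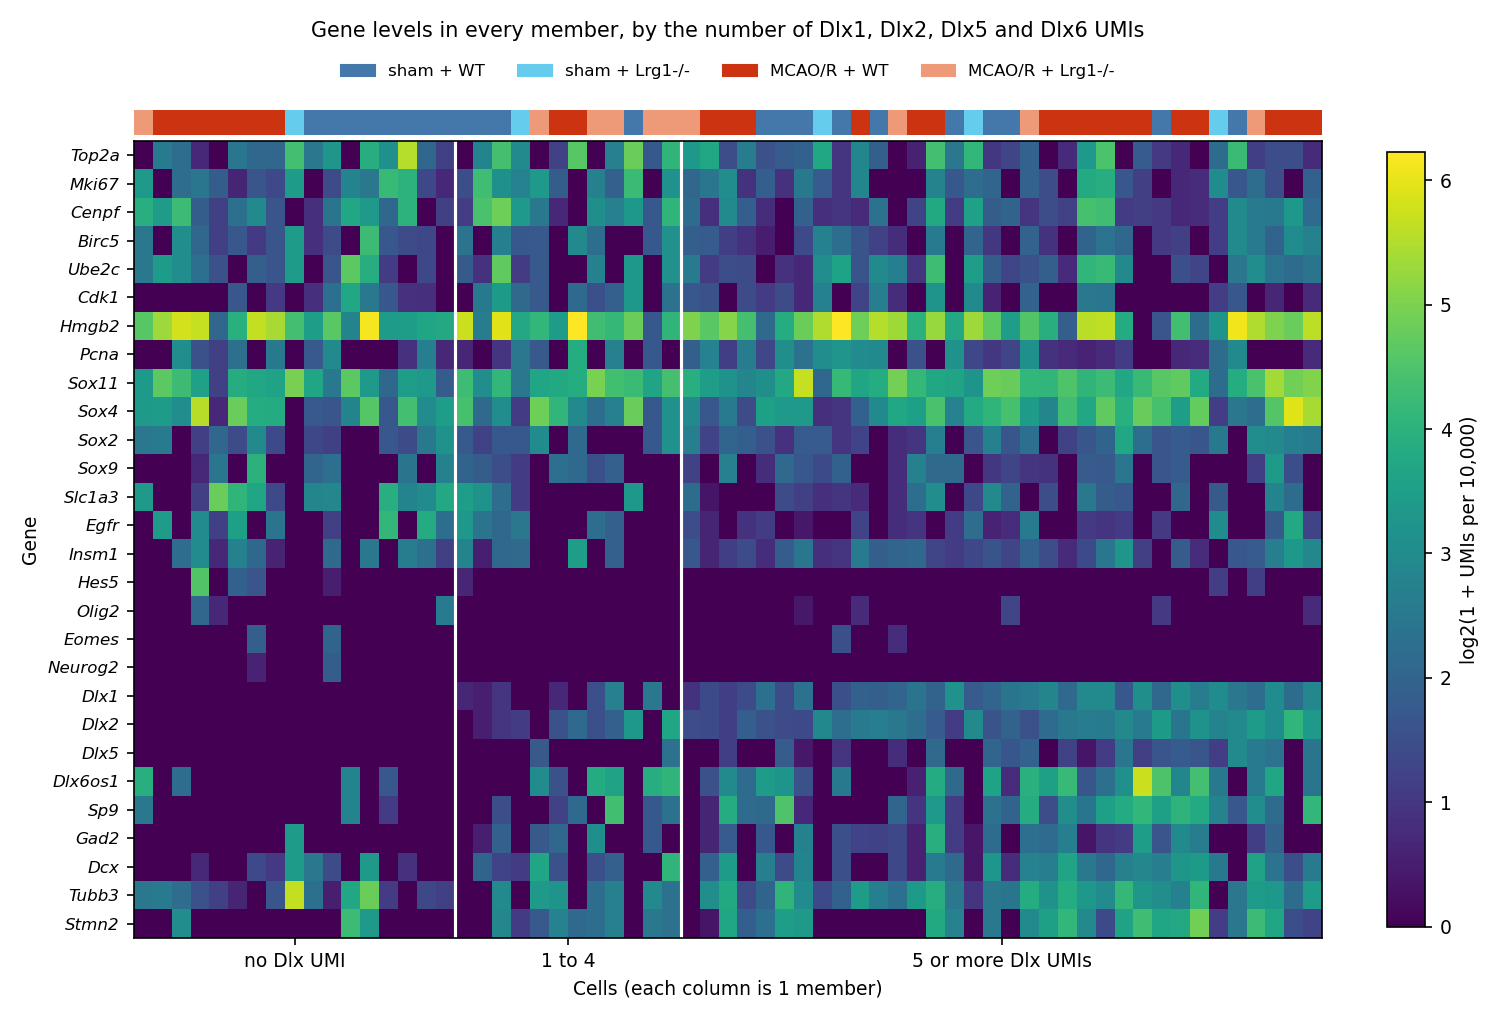
Level of selected genes (rows; colour, log2 of 1 plus UMIs per 10,000) in each of the 63 members (columns), ordered by the share of Dlx1, Dlx2, Dlx5 and Dlx6 UMIs within 3 classes divided by white lines, with the group of each cell in the top strip. Hmgb2 and Sox11 are present nearly throughout, Slc1a3 and Egfr lie mostly to the left and Sp9, Dcx and Stmn2 mostly to the right.

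Several facts of the libraries touch the comparisons of conditions. Lrg1 had 35,108 UMIs in the 5 wild-type libraries and 1 UMI in the 6 knockout libraries, as labelled, and 1 UMI in all members. The median depth of retained cells ran from 3190 to 11,504 UMIs and was lower in MCAO/R + Lrg1-/- replicates 1 and 5 (3533 and 3190). Cells with over 5% haemoglobin UMIs made up 11.6 to 35.8% of the knockout libraries and 0.0802 to 0.169% of the wild-type ones. The noncoding RNA Xist, made by the inactive X chromosome of females, had 18,019 and 79,548 UMIs in MCAO/R + Lrg1-/- replicates 1 and 2, which had 24 and 86 UMIs of 4 Y-linked genes. The other 9 libraries had 0 to 69 Xist UMIs. Retained cells shared 2034 barcodes between libraries, 5 of them with a member, and no barcode was a member in more than 1 library.

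Dividing neural progenitors were a smaller share of the knockout libraries than of the wild-type ones, but the difference did not pass correction. The sham + WT libraries held 0.0724%, 0.0812% and 0.0423% members among retained cells and MCAO/R + WT 0.0302% and 0.185% (exact Clopper-Pearson 95% interval of the last 0.117 to 0.277%). The sham + Lrg1-/- libraries held 0.0528%, 0 and 0 members, where 3 counts, taken as the limit for a count of 0, would be 0.0529% and 0.0923% (Clopper-Pearson upper bounds 0.065% and 0.113%). The MCAO/R + Lrg1-/- libraries held 0 (by the same limit up to 0.0466%, upper bound 0.0573%), 0.0167% and 0.0205%. Intervals and limits cover counting error only. Every wild-type library lay above 5 of the 6 knockout libraries, and sham + Lrg1-/- replicate 1 lay within the wild-type range.

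Over both surgeries the mean share was 0.0150% ± 0.0207 (SD, n = 6) in Lrg1-/- mice and 0.0821% ± 0.0610 (SD, n = 5) in WT mice. The mean within-surgery difference was -0.0713 percentage points (two-sided exact permutation test within surgeries, p = 0.01, adjusted p = 0.18 by Benjamini-Hochberg over 24 tests; the smallest p the design allows is 0.005). Without MCAO/R + WT replicate 2, the difference was -0.0327 (exact permutation p = 0.05). Without the 2 libraries with Xist it was -0.0673 (exact permutation p = 0.3, where the smallest possible is 0.0167). Cells of at least 3000 UMIs were also thinned to that depth and the rule applied again, with shallower cells left out. Shares were then 0.0436% and 0.291% (exact permutation p = 0.015, adjusted p = 0.18). Exclusion markers lost UMIs too, so this was another set of cells, with 75 instead of 23 in MCAO/R + WT replicate 2. Cells deep enough made up 90.6% of that library and 53.8% of MCAO/R + Lrg1-/- replicate 1. Within MCAO/R, the means were 0.0124% ± 0.0109 (SD, n = 3) in Lrg1-/- and 0.107% ± 0.109 (SD, n = 2) in WT mice (exact permutation p = 0.1, the smallest possible for this comparison). Within sham, they were 0.0176% ± 0.0305 and 0.0653% ± 0.0204 (SD, n = 3 each; exact permutation p = 0.2).

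Ischemia-reperfusion itself gave no difference beyond the spread between mice. The mean share was 0.0504% ± 0.0758 (SD, n = 5) after MCAO/R and 0.0415% ± 0.0349 (SD, n = 6) after sham operation (exact permutation p = 0.665). In WT mice the MCAO/R mean exceeded the sham mean (exact permutation p = 0.7), but its 2 libraries, at 0.0302% and 0.185%, stood on either side of all 3 sham libraries. In Lrg1-/- mice the means were 0.0124% and 0.0176% (exact permutation p = 1.0). With so few mice these p values do not show that the shares were alike.

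A second denominator left out cells without Sox11. Among the 673 Sox11-positive cells with fewer than 2 exclusion markers, members made up 4.18% ± 4.91 (SD, n = 6) in Lrg1-/- and 10.1% ± 4.29 (SD, n = 5) in WT mice (exact permutation p = 0.08, adjusted p = 0.48). Such cells numbered 44, 6 and 4 in sham + Lrg1-/- and 25, 38 and 120 in MCAO/R + Lrg1-/-. They numbered 121, 58 and 62 in sham + WT and 47 and 148 in MCAO/R + WT. The means weigh each library alike, and the 0% of 2 sham + Lrg1-/- libraries rests on 6 and 4 cells. In the wider set the order was the same. Its counts were 63, 33 and 36 in sham + WT, 20, 0 and 0 in sham + Lrg1-/-, 17 and 127 in MCAO/R + WT and 3, 13 and 34 in MCAO/R + Lrg1-/-. Its share of retained cells was 0.0716% ± 0.0789 (SD, n = 6) against 0.472% ± 0.323 (SD, n = 5; exact permutation p = 0.005, the smallest possible, unadjusted because this set was chosen after the data were seen). The difference of -0.421 was -0.209 without MCAO/R + WT replicate 2, and the p value without the 2 libraries with Xist was 0.25 (exact permutation tests). The part of depth, cell calling, mouse age and mouse sex in these differences was not tested.

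**Figure D4:**
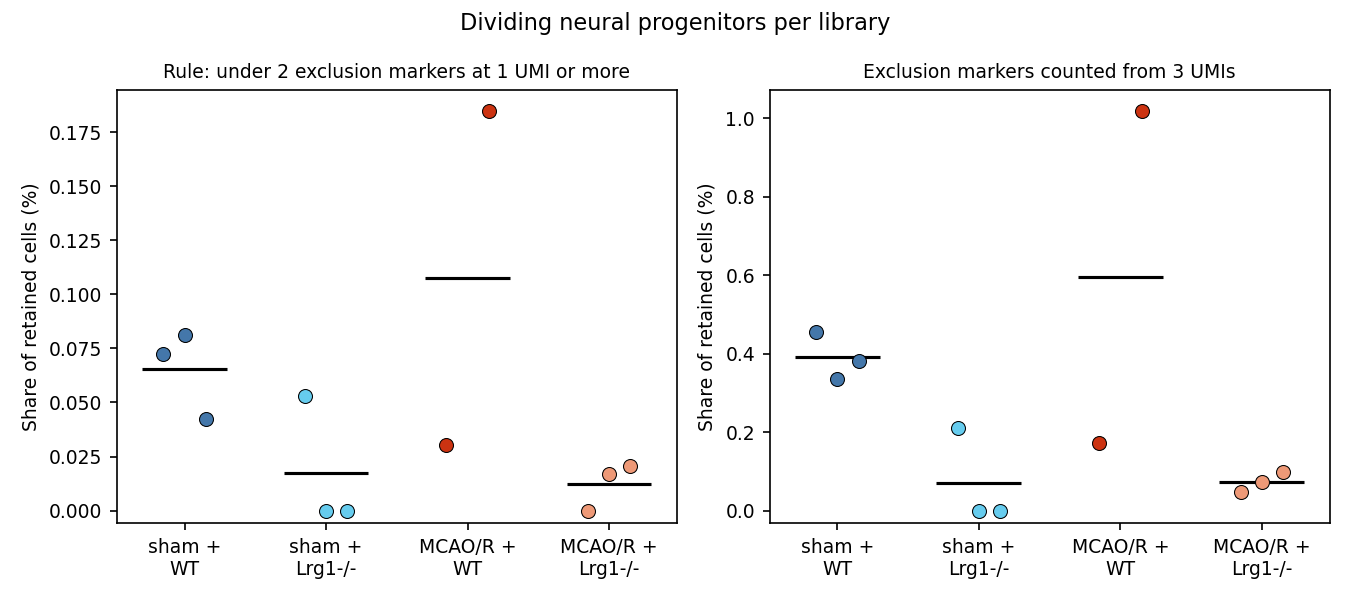
Share of retained cells (y axis, percent) that were members (left) or belonged to the wider set (right) in each library (points) of the 4 groups (x axis), with group means as lines. MCAO/R + WT replicate 2 stands highest in both panels (0.185% and 1.02%), and 2 sham + Lrg1-/- libraries are at 0 in both.

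Gene levels between conditions were compared on UMIs summed over the members of a library, with edgeR's quasi-likelihood test over the 8 libraries with at least 3 members. Only 1 sham + Lrg1-/- library entered, which is assumed to vary like the others. A gene was called at an adjusted p below 0.05 and a natural-log fold change beyond 0.25. Between MCAO/R + Lrg1-/- and MCAO/R + WT, 6 of 2729 genes (0.22%) were called, all higher in the knockout, and no member of the neural, cell cycle, Notch or stem cell lists was among them. Over both surgeries 4 genes (0.147%) were called, and between the sham groups 2 (0.0733%). The counts after MCAO/R depend on MCAO/R + WT replicate 2, without which 0 genes were called. They were 3 without sham + Lrg1-/- replicate 1 and 14 without sham + WT replicate 1, of which 8 were higher and 6 lower. Lower calls also appeared without the filter on low counts (11 higher and 5 lower) and with DESeq2 (3 higher and 1 lower).

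The genes called were those of red blood cells, choroid plexus and neutrophils, cells that are not progenitors. Hbb-bs, a haemoglobin chain gene, was at 0, 0 and 0 UMIs per 10,000 in the sham + WT members, 6.50 in sham + Lrg1-/-, 0 and 0.0264 in MCAO/R + WT and 26.3 and 11.8 in MCAO/R + Lrg1-/- (edgeR adjusted p = 6.87e-07 over both surgeries). Every knockout library lay above every wild-type library. Ttr, which encodes a thyroid hormone carrier of the choroid plexus, was at 3.6, 4.54 and 2.62 in sham + WT, 18.7 in sham + Lrg1-/-, 2.02 and 0.738 in MCAO/R + WT and 23.6 and 16.5 in MCAO/R + Lrg1-/-, higher in the knockout by 3.23 ± 0.42 on the log2 scale (SE, edgeR adjusted p = 0.000225). The neutrophil gene S100a9, called after MCAO/R (edgeR adjusted p = 0.0066), had UMIs in MCAO/R + Lrg1-/- only, at 1.75 and 8.27. The other, S100a8 (edgeR adjusted p = 0.0207), was at 0 and 11.7 there, 0.159 in sham + Lrg1-/- and 0 and 0.0264 in MCAO/R + WT, so its level came from 1 library, and its log2 difference was -1.64 in 1 alternative. The same lists ran through the whole libraries. The red blood cell list was at 0 to 0.524 UMIs per 10,000 in wild-type and 11.1 to 47.3 in knockout members, and at 2.28 to 4.07 and 344 to 901 in all retained cells.

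No gene was called for MCAO/R + WT against sham + WT, for MCAO/R + Lrg1-/- against sham + Lrg1-/-, for surgery over both genotypes or for the interaction of genotype and surgery (0% of 2729 genes in each). At an unadjusted p below 0.05 these comparisons held 55, 150, 158 and 80 genes, and DESeq2 called 0 in each. With no difference at all, a share near 0.05 of the 2729 genes would fall below that limit. The unadjusted counts therefore do not by themselves show a difference. With no filter on low counts 7, 1, 4 and 1 were called, with at least 5 members per library 5, 12, 9 and 8, and without sham + WT replicate 1 they were 7, 9, 25 and 0. Over all genes tested the median log2 difference was -0.08 for Lrg1-/- against WT and 0.01 for MCAO/R against sham. Of the G2/M list 21 of 30 genes were tested and 0 were called in either direction, with medians of 0.21 for genotype and -0.41 for surgery. The 15 neuroblast genes had medians of -0.72 and 1.10, again with 0 called.

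Immediate early genes, which cells switch on within minutes of a stimulus, dissociation of the tissue included, were lower in knockout members without passing the test. The list was at 133, 69.5 and 154 UMIs per 10,000 in sham + WT, 41.7 in sham + Lrg1-/-, 178 and 112 in MCAO/R + WT and 49.0 and 54.2 in MCAO/R + Lrg1-/- members, with no overlap between genotypes. Jun, a subunit of the AP-1 transcription factor, was at 33.9, 19.5 and 27.3 in sham + WT, 7.93 in sham + Lrg1-/-, 29.8 and 27.9 in MCAO/R + WT and 4.82 and 7.90 in MCAO/R + Lrg1-/-, a log2 difference of -1.94 ± 0.42 (SE; edgeR adjusted p = 0.0836). Of 10 genes of the list tested, 3 had lower levels in every knockout library than in any wild-type library, and 3.33% of all genes tested did so. The list was also lower in all retained cells, at 98.0 to 220 in knockout and 237 to 323 in wild-type libraries.

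**Figure D5:**
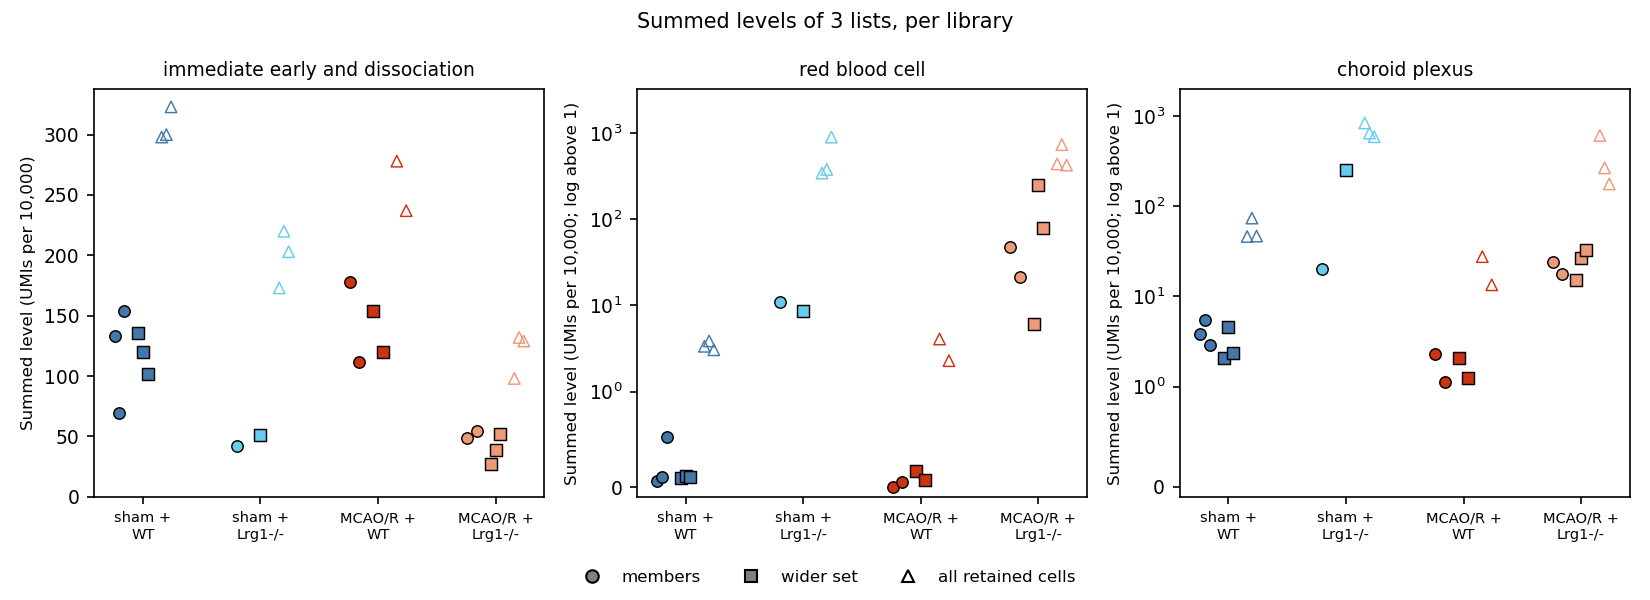
Summed level of 3 lists (y axis, UMIs per 10,000; the red blood cell and choroid plexus panels are logarithmic above 1) per library in members (circles), the wider set (squares) and all retained cells (open triangles) of the 4 groups (x axis). Immediate early genes are lower and red blood cell and choroid plexus genes higher in Lrg1-/- libraries, in members as in all cells.

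The wider set gave the fit more cells, 8 libraries with at least 10 of them and 10,079 genes. In it 323 genes (3.2%) were called between genotypes over both surgeries, 215 higher and 108 lower in Lrg1-/-. The balance turned without the filter on low counts, with 293 higher and 378 lower of 671. Lower calls covered 6 of the 14 immediate early genes against 1.07% of all genes. Jun fell by 2.06 ± 0.19 on the log2 scale (SE; edgeR adjusted p = 2.05e-05), Fos fell by 1.67 ± 0.19 (edgeR adjusted p = 0.000129) and Jund fell by 1.55 ± 0.17 (edgeR adjusted p = 0.00011). Jun stood at 32.6, 29.8 and 23.0 UMIs per 10,000 in sham + WT, 9.46 in sham + Lrg1-/-, 36.6 and 27.1 in MCAO/R + WT and 3.55 and 6.02 in MCAO/R + Lrg1-/-, so that the genotypes did not overlap. In all, 6 of the 14 genes were lower in every knockout library than in any wild-type library, as were 9.14% of all genes tested. Within MCAO/R 77 genes (0.764%) were called, 57 higher (0.566%) and 20 lower (0.198%). Without MCAO/R + WT replicate 2 this became 51, of which 21 were higher and 30 lower, and without MCAO/R + Lrg1-/- replicate 5 it became 38. Within sham 286 (2.84%) were called, 209 higher (2.07%) and 77 lower (0.764%), a comparison of 1 knockout library of 20 cells with 3 wild-type libraries. That count was 165 without sham + WT replicate 2 and 179 without replicate 3, and 606 (316 higher and 290 lower) without the filter. Leaving out 1 library at a time, 133 of the 323 calls held in all 7 fits, and 12 of 77 in all 8. The sham + Lrg1-/- library, the only one of its group, could not be left out of the fits for both surgeries and for sham, so these say nothing of the calls that rest on it.

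Calls in the stem cell and G1 lists went both ways, and those in the transit-amplifying list were lower, beside 1.07% of all genes lower and 2.13% higher. Of the 13 stem cell and radial glia genes tested, 1 was lower and 1 higher. Sox9, a factor of stem cells and glia, was at 2.16, 2.0 and 1.43 UMIs per 10,000 in sham + WT, 0.665 in sham + Lrg1-/-, 2.75 and 2.25 in MCAO/R + WT and 0.795 and 0.914 in MCAO/R + Lrg1-/-, a log2 change of -1.41 ± 0.22 (SE; edgeR adjusted p = 0.0025). Id3, which restrains differentiation factors, rose by 1.2 ± 0.25 (edgeR adjusted p = 0.0145), with 1.6 in the sham + Lrg1-/- library and 0.272 to 0.63 in the others. The homeobox gene Prox1 fell by 1.31 ± 0.21 (edgeR adjusted p = 0.00274) and, of 12 G1 regulators, the cycle inhibitor gene Cdkn1b fell by 0.82 ± 0.17 (edgeR adjusted p = 0.0136). Its relative Cdkn1c rose by 1.64 ± 0.33 (edgeR adjusted p = 0.0129), with 1.57 in the sham + Lrg1-/- library, 0.14 and 0.378 in MCAO/R + Lrg1-/- and 0.142 to 0.278 in WT. Sox9, Prox1 and Cdkn1b were called in all 7 fits that left out 1 library, and Id3 and Cdkn1c were not. Of the 11 transit-amplifying genes 4 were lower and 0 higher, namely Btg2, Insm1, Sox4 and Gsx2. Insm1 fell by 0.82 ± 0.16 (edgeR adjusted p = 0.011) and Sox4 fell by 0.53 ± 0.11 (edgeR adjusted p = 0.0182), but of the 4 genes only Btg2 was called in every such fit. The 30 G2/M genes held 1 lower call, Ect2, and the 22 S phase genes none.

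The higher calls of the wider set again led with other cell types. Of 5 red blood cell genes the 4 haemoglobin genes, 5 of 6 choroid plexus genes and 5 of 10 microglial genes were higher in Lrg1-/-, against 2.13% of all genes. The summed microglial list was at 4.37 to 8.68 UMIs per 10,000 in wild-type libraries and 7.98 to 24.1 in knockout libraries. The hypoxia and glycolysis list had 5 of 12 genes higher over both surgeries, 6 within sham and 0 after MCAO/R, among them Ldha, which makes lactate (log2 change 1.23 ± 0.20; edgeR adjusted p = 0.00274), and Eno1 (1.35 ± 0.20; edgeR adjusted p = 0.00143). Ifitm3, an interferon-induced membrane gene, rose by 1.91 ± 0.24 (edgeR adjusted p = 0.000352). The part of RNA from other cells in these calls was not tested.

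Over both genotypes, neuroblast genes were called higher after ischemia-reperfusion in the wider set, but not within WT mice. Over both genotypes 72 genes (0.714%) were called, and of 15 neuroblast genes 5 were higher and 0 lower, against 0.417% of all genes higher. The list's median log2 difference was 0.56, made up of 0.16 with 0 called in WT and 0.94 with 4 called in Lrg1-/- mice, whose sham side is 1 library of 20 cells. Tubb3 rose by 0.95 ± 0.16 on the log2 scale (SE; edgeR adjusted p = 0.0116), Cd24a, a surface protein of neuroblasts, by 1.14 ± 0.17 (edgeR adjusted p = 0.00584) and the interneuron factor Sp9 by 1.36 ± 0.16 (edgeR adjusted p = 0.00124). Sp9 was at 2.20, 2.17 and 2.50 UMIs per 10,000 in sham + WT, 0.756 in sham + Lrg1-/-, 3.31 and 3.58 in MCAO/R + WT and 3.32 and 3.47 in MCAO/R + Lrg1-/-. All MCAO/R libraries lay above all sham libraries. A further 30 genes (0.298%) were lower, Ttr among them. So were 3 of 6 endothelial genes, Itm2a, Flt1 and Pltp. Itm2a fell by 2.55 ± 0.31 (SE; edgeR adjusted p = 0.00124), from 0.508 to 0.937 UMIs per 10,000 in sham libraries to 0.104 to 0.195 after MCAO/R. Other genes of blood cells rose. The neutrophil gene S100a8 rose by 4.51 ± 0.78 over both genotypes, and the haemoglobin gene Hbb-bs by 4.07 ± 0.49 within Lrg1-/- mice (log2 scale, SE). The part of RNA from endothelial and other cells in the comparison was not tested. Within Lrg1-/- mice 100 genes (0.992%) were called, 50 in each direction (0.496% each). Leaving out MCAO/R + Lrg1-/- replicate 5 gave 58. The interaction of genotype and surgery called 8 (0.0794%), 2 higher (0.0198%) and 6 lower (0.0595%). That balance turned with DESeq2 (30 higher and 15 lower of 45) and without MCAO/R + Lrg1-/- replicate 5 (12 higher and 8 lower of 20), and the count fell to 1 without sham + WT replicate 1. The lowest Sp9 level was that of the single sham + Lrg1-/- library, in which Ttr stood at 237 UMIs per 10,000.

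Within WT mice alone, 18 of the 10,079 genes (0.179%) were called after MCAO/R, 14 higher (0.139%) and 4 lower (0.0397%), and neither Sp9 nor any neuroblast gene was among them. The endothelial genes Itm2a and Pltp were 2 of the 4 lower ones. Of 7 oligodendrocyte genes 1, Mobp, was called higher (2.23 ± 0.42, edgeR adjusted p = 0.0491), with a list median of 1.13 and 7 of 7 above 0, and over both genotypes 0 were called, with a median of 1.34. Metallothionein Mt1, which binds metals under stress, was at 1.68, 0.662 and 1.51 UMIs per 10,000 in sham and 3.78 and 5.79 after MCAO/R (log2 change 1.88 ± 0.28, SE; edgeR adjusted p = 0.0127). The glucose transporter gene Slc2a1 rose by 1.62 ± 0.24 (edgeR adjusted p = 0.0127), the kinase gene Sgk1 by 2.07 ± 0.32 (edgeR adjusted p = 0.0157) and the cold-inducible RNA-binding gene Rbm3 by 0.88 ± 0.14 (edgeR adjusted p = 0.0238). The acute-phase gene Lcn2 was listed at 0 in all 3 sham + WT libraries and stood at 0.668 and 0.335 in MCAO/R + WT (edgeR adjusted p = 0.005). The splicing regulator gene Rbfox1 fell by 1.98 ± 0.25 (edgeR adjusted p = 0.00557). Some of these levels were low, Slc2a1 being at 0.297, 0.343 and 0.502 UMIs per 10,000 in sham + WT and 1.39 and 1.06 in MCAO/R + WT. The part of RNA from other cells in these calls was not tested. The count was 3 without MCAO/R + WT replicate 2, and 11, 4 and 7 without sham + WT replicates 1, 2 and 3, with 5 higher and 6 lower of the 11. Of the 18 genes, 1 was called in all 8 fits that left out a library.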

How the data were processed

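The authors deposited UMI counts per gene and barcode. Per the file headers these counts come from Cell Ranger 7.0.1; the study's methods name another release, and the submitters' notes name STAR and mm10. The methods say that Cell Ranger separated cell barcodes, with no setting given in the sources used here; 4 knockout libraries held 15,500, 9000, 5650 and 8500 barcodes with at least 551 to 770 UMIs each, and the other 7 libraries went down to 500 UMIs. Members and gene lists were chosen with earlier results of these data known. All 29 lists (289 genes) were counted. Genes were named from the neural and cell cycle lists by level or call, and from the calls of each comparison.

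Levels are UMIs per 10,000 over the pooled members of a library. Summed counts were tested with edgeR 4.0.16 (R 4.3.3; quasi-likelihood, TMM, filterByExpr, groups without a block), and with DESeq2 1.42.0 as an alternative, checked on simulated data. The planned minimum of 10 members per library left 2 libraries, so at least 3 were required, which was chosen after the data were seen, as were the wider set (at least 10 cells per library), the fit without Xist libraries and the Dlx split. Shares were compared by exact permutation over mice, within surgery where pooled. The study describes 1 library per mouse, and p-values measure the spread between these libraries. Doublets were scored with Scrublet (scanpy 1.11.5) at 6%, and the highest 6% of scores taken where its own threshold marked under 0.5%. Cells outside the filters, sequencing reads and the study's other assays were not analysed here, and some genes of the lists are not reported here.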

Additional observations from a re-analysis of the deposited data

Results flagged for a closer look

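In the wider set, in which exclusion markers counted from 3 UMIs, 8 of 10,079 genes passed the interaction term of genotype and surgery in edgeR's quasi-likelihood fit, which sets the other groups against 1 sham + Lrg1-/- library of 20 cells. The interaction, as the log2 change after MCAO/R minus that after sham operation, was -4.24 for the mitochondrial protein gene Chchd10 (adjusted p = 0.017), -3.78 for Tmem132b (adjusted p = 0.0297), -3.41 for the chaperone gene Clu (adjusted p = 0.0306), -2.53 for Gm42418 (adjusted p = 0.0171), -2.18 for AY036118 (adjusted p = 0.0297) and -1.9 for the lactate dehydrogenase gene Ldhb (adjusted p = 0.0297). It was 2.53 for the synaptic scaffold gene Dlgap1 (adjusted p = 0.0297) and 3.19 for the receptor gene Erbb4 (adjusted p = 0.0297). In that library Ttr was at 237 UMIs per 10,000, and 0 of the 8 genes were called in every fit that left out a library. No group had 4 or more libraries, so that no library could be tested as far from its group.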

How the results depend on the processing

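Gene counts in members are listed in the order Lrg1-/- against WT after MCAO/R, after sham and over both surgeries, then MCAO/R against sham in WT, in Lrg1-/- and over both genotypes, then the interaction. The reported fit gave 6, 2, 4, 0, 0, 0 and 0. No filter on low counts gave 16, 4, 13, 7, 1, 4 and 1. DESeq2 gave 4, 1, 9, 0, 0, 0 and 0, of which 7 of the 9 were lower. Libraries with at least 5 members gave 9, 20, 16, 5, 12, 9 and 8, and the wider set 77, 286, 323, 18, 100, 72 and 8. Thinning to 3000 UMIs gave 2 and 0 in the first 2 comparisons. RLE size factors and 10% mitochondrial UMIs each gave 1 for sham and the reported counts elsewhere. With doublets left out the first 3 counts were 4, 1 and 5, the 5 being 4 higher and 1 lower. The only member scored as a doublet was in MCAO/R + Lrg1-/- replicate 5. Leaving out 1 library gave ranges of 0 to 14, 1 to 10, 3 to 13, 0 to 7, 0 to 9, 0 to 25 and 0 to 0, the high ends without sham + WT replicate 1. Same-numbered libraries did not deviate together (correlations from -0.02 to 0), but this cannot decide whether the numbers pair them. The sham + Lrg1-/- group, with 1 library in the fit, could not be checked. In groups of 2 libraries the deviations mirror each other. With the replicate block the counts were 5, 1, 5, 2, 0, 0 and 0.

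For shares of retained cells, the genotype difference of -0.0713 ranged from -0.11 to -0.0327 without 1 library and was -0.0673 without the Xist libraries. MCAO/R minus sham in WT became -0.0013 with no exclusion marker allowed and ranged from -0.0352 to 0.119 without 1 library. In Lrg1-/- it became 0.0 with no exclusion marker, 0.00247 in the wider set, 0.0257 when thinned and 0.0535 with both, and ranged from -0.014 to 0.0124. Over both genotypes it became -0.00065 with no exclusion marker and ranged from -0.0202 to 0.057. Of Sox11-positive cells, the genotype difference passed 0.05 unadjusted with no exclusion marker (-14.8), with 2 dividing genes (-10.5), in the wider set (-12.4) and thinned in the wider set (-8.15), and ranged from -8.34 to -3.76. With no exclusion marker, Sox11-positive cells numbered only 6, 1 and 2 in sham + Lrg1-/- and 4, 4 and 2 in MCAO/R + Lrg1-/-, with 0 members. MCAO/R + WT replicate 1 then held 1 member among 4 such cells. The -14.8 thus rests on shares of very few cells. MCAO/R minus sham became -1.71 in WT when thinned and 0.0 in Lrg1-/- with no exclusion marker, and without 1 library ranged from -3.12 to 6.04, from -1.11 to 4.58 and, over both genotypes, from -1.17 to 3.41. The causes were not tested. The fits planned with at least 10 or 20 members per library, or with no exclusion marker, could not be made. Only 2 libraries held at least 10 members. With no exclusion marker no library held more than 4, the number in sham + WT replicate 2. Depth limits the fit in members to the 2729 best-counted genes. In the wider set, calls between genotypes over both surgeries were 323 in the reported fit, 348 with RLE size factors, 671 without the filter, 268 with DESeq2, 111 with the replicate block (63 higher and 48 lower) and 210 to 289 without 1 library. Those between surgeries were 72, 70, 338, 103, 44 and 49 to 119, and those between genotypes after MCAO/R 77, 84, 305, 91, 36 and 38 to 89. In the same order they were 286, 298, 606, 170, 159 and 165 to 335 for genotype within sham, 18, 18, 136, 16, 25 and 3 to 26 for surgery in WT, 100, 102, 332, 96, 35 and 58 to 136 for surgery in Lrg1-/- and 8, 8, 188, 45, 9 and 1 to 20 for the interaction.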
